A study of Mus musculus with 24 samples.

Results

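The 8 genes described here, Egr1, Egr2, Egr3, Nr4a1, Nr4a2, Nr4a3, Ier2 and Ier3, were chosen by name as immediate-early genes, and were read through every probe whose RefSeq transcript belongs to them. They made up 12 of the 56605 probes and 8 of the 23787 genes with a symbol on the array. Gene expression was measured in the mouse TM3 Leydig cell line, an established line, on 24 one-colour microarrays in 6 groups of 4 biological replicates. Sham-exposed cells (S0, S4 and S24) and cells exposed to a nanosecond pulsed electric field, nsPEF (E0, E4 and E24), were collected at 0, 4 and 24 h after treatment. The exposure consisted of 80 pulses of 60 ns at 5.5 kV, a field of 14 kV/cm, over 180 s. The cells of every group, sham included, had been washed in the cold, suspended in binding buffer, strained and placed in a cuvette beforehand, so the 0 h sham group is not an untouched culture. By the study's account the 0 h cells came straight from this long preparation, while those of 4 and 24 h had been in culture and were harvested quickly. No group carried a genetic change.

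Immediate-early genes are transcribed within minutes of a stimulus, without waiting for new protein, and most of their mRNAs are short-lived. Egr1, Egr2 and Egr3 are zinc-finger transcription factors that bind GC-rich sites, and the corepressors Nab1 and Nab2 bind them. Nr4a1 (Nur77), Nr4a2 (Nurr1) and Nr4a3 (Nor1) are orphan nuclear receptors whose activity is set largely by how much of them is made. In Leydig cells luteinizing hormone raises Nr4a1 through cyclic AMP, and Nr4a1 binds promoters of steroid-making enzymes. Ier2 is a small nuclear protein induced by growth factors, and Ier3 (IEX-1) is a stress-induced protein with roles in cell survival.

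The promoters are shown because several of these genes changed together over time. Windows of 250 bases before to 50 bases after a transcript start were held by RefSeq tables (GRCm38.p6) for 5 of the 8 genes, Egr2 with 5 overlapping or nearby windows and Nr4a1, Nr4a2, Nr4a3 and Ier3. The searched motifs, on both strands, were the CArG box of serum response factor, the cyclic AMP response element TGACGTCA and its core TGACG, the EGR sites GCGGGGGCG and GCGTGGGCG, and the NBRE AAAGGTCA to which Nr4a receptors bind. Of all 32851 windows, 1.63% held a CArG box, 1.79% the full element, 20.8% the core, 3.47% an EGR site and 1.51% an NBRE, and the core is part of the full element. In the lines below capitals mark the motif letters, each line runs 5′ to 3′ in the sense of the gene, and all end before the start site.
Egr2, first CArG box, chr10:67537486-67537515, plus strand: gatcttctCCTTTTTTGGaaagtctcggag
Egr2, second CArG box followed by a TGACG core on the opposite strand, chr10:67537789-67537818, plus strand: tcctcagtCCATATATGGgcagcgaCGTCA
Nr4a1, cores and an EGR site, all on the opposite strand, chr15:101266601-101266815, plus strand: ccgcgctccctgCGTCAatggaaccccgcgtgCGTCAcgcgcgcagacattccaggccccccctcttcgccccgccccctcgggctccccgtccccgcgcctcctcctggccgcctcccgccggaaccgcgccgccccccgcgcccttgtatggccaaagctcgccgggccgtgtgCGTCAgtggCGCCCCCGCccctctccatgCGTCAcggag
Nr4a2, cores on both strands, chr2:57124099-57124213, minus strand: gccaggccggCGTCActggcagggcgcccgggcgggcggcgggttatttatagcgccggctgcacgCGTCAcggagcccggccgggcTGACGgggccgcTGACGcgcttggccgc
Nr4a3, cores on both strands, chr4:48045065-48045174, plus strand: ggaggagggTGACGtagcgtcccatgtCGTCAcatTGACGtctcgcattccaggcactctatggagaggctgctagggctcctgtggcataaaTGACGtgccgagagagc

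In the windows searched, Egr2 was the gene with CArG boxes, in 4 of its 5 windows. Nr4a1, Nr4a2 and Nr4a3 each held 4 cores and no CArG box. The Nr4a1 window also held the EGR site, whose first base lay 60 bases before the start. The Ier3 window held none of the motifs, and no window held a full cyclic AMP response element or an NBRE. A match is a string of letters and not a measured binding site.

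The values below are log2 intensities minus the array's 75th percentile, so that probes above 0 were brighter than the 75th percentile, and values are compared only within a probe. Differences were tested with limma over all 24 arrays, and a probe was called at a Benjamini-Hochberg adjusted p under 0.05 over the 37684 probes tested. The share of all probes whose groups do not overlap was counted between nsPEF and sham, not between times. Of the 12 member probes, 11 were tested. The other, the Nr4a3 probe A_51_P128397, was well above background on 2 of the 24 arrays. Per array, 51.2% to 62.1% of the probes were well above background and the 75th percentile of intensity lay between 202 and 533. nsPEF arrays had the lower shares, 52.6% to 57.0% against 57.5% to 59.6% at 0 h, and at 4 and 24 h they had more flagged spots than sham arrays. Each time point filled 1 slide of 8 arrays, sham in one row and nsPEF in the other. Hours therefore cannot be told apart from slides, nor treatment from place. Nor can hours be told apart from the handling and culture described above. Of the 8 Leydig markers with a probe, Star, Cyp17a1 and Nr5a1 were well above background on all 24 arrays, Cyp11a1, Hsd3b6, Hsd17b3 and Lhcgr on 0, and Hsd3b1 on 1. Of the markers of other cell types, the Sertoli cell genes Sox9 and Wt1 were so on all 24 arrays, with Amh on 2, Fshr on 1 and Dhh on 0. The macrophage genes Cd68 and Csf1r were so on all 24, with Ptprc and Adgre1 on 1 each, and the fibroblast or peritubular genes Acta2, Col1a1 and Pdgfra on all 24, with Myh11 on 17. The germ cell genes Ddx4, Dazl and Sycp3 were so on 16, 2 and 1 arrays by their brightest probes. At 4 h in sham cells Sox9, Wt1, Cd68, Col1a1 and Ddx4 were called lower and Csf1r, Acta2 and Dazl higher. In nsPEF against sham cells Myh11 was higher by 2.28 at 0 h (adjusted p = 0.035) and 2.09 at 24 h (adjusted p = 0.0083), Csf1r lower at 0 h (-0.57, adjusted p = 0.035), Ddx4 lower at 24 h (-0.71, adjusted p = 0.030) and Pdgfra lower at 24 h (-0.24, adjusted p = 0.041). The part of these markers in the results was not tested. In these bulk samples fewer expressing cells and less RNA per cell cannot be told apart.

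**Figure D1:**
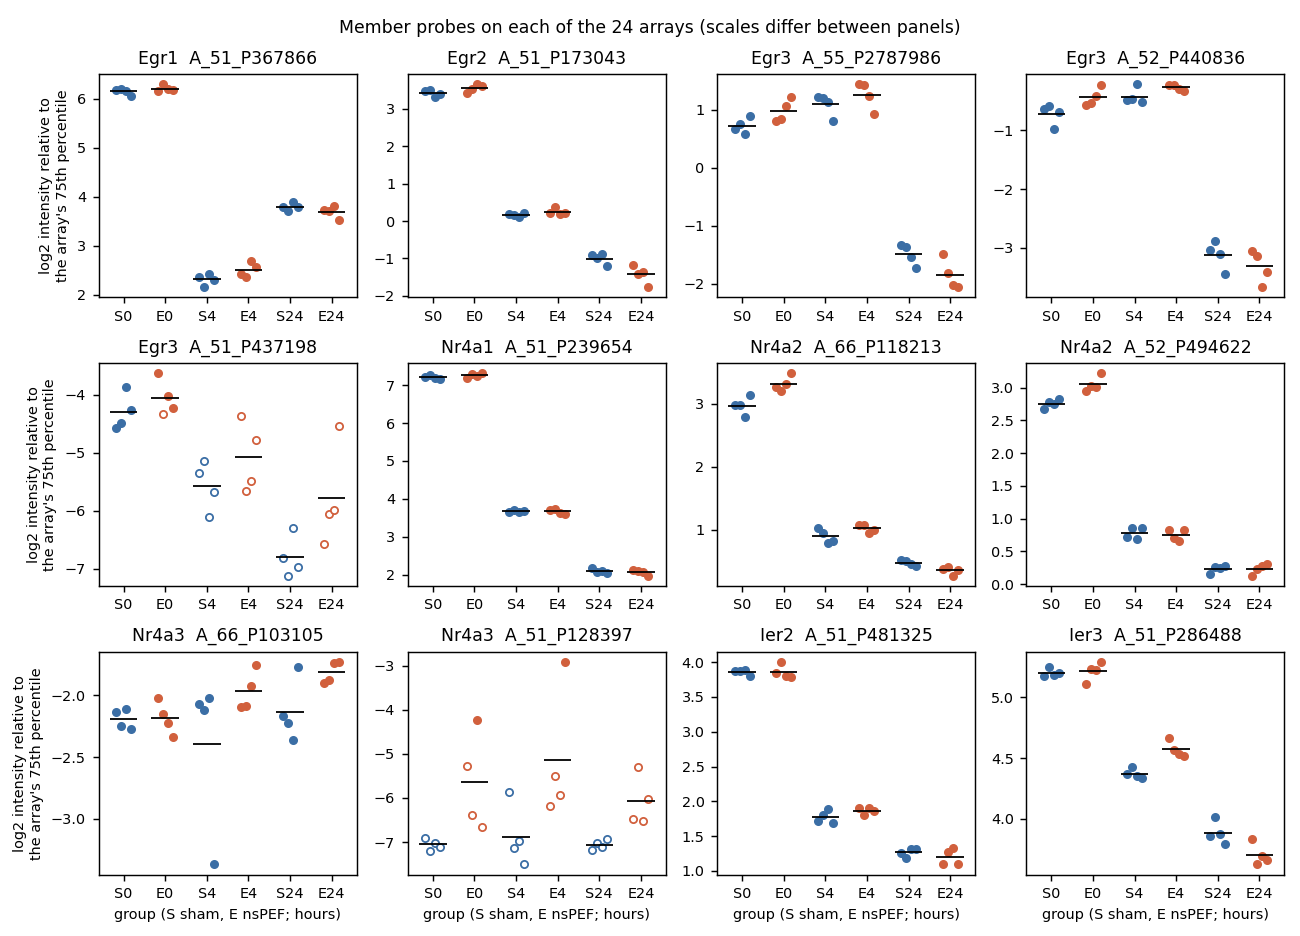
Log2 intensity relative to the array's 75th percentile (vertical axis, a scale of its own in each panel) of the 12 member probes on each array, by group (horizontal axis: S sham, E nsPEF, hours after treatment). Points are arrays, filled where the probe was well above background, and bars are means of 4 arrays. Egr1 is the member whose 24 h arrays lie above its 4 h arrays, the 2 brighter Egr3 probes stay up at 4 h, and the tested Nr4a3 probe has 1 sham array at -3.37 at 4 h.

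Egr1 was the member that fell furthest by 4 h and the only gene of the 8 called higher at 24 h than at 4 h. In sham cells its 4 arrays read 6.19, 6.20, 6.16 and 6.06 at 0 h, 2.36, 2.16, 2.42 and 2.31 at 4 h, then 3.79, 3.70, 3.90 and 3.79 at 24 h. In nsPEF cells they read 6.16, 6.29, 6.19 and 6.17, then 2.42, 2.36, 2.69 and 2.57, then 3.72, 3.72, 3.81 and 3.52. The arrays of the 3 times did not overlap, and the order from high to low was 0 h, 24 h and 4 h with either treatment. Egr1 fell by 3.84 ± 0.07 (SE) on the log2 scale between 0 and 4 h in sham cells, to 6.99% of its 0 h intensity, the change of rank 83 in size among all probes tested (adjusted p = 6.1e-19). It then rose by 1.48 ± 0.07 (adjusted p = 1.1e-12), and at 24 h stood at 19.5% of the start. In nsPEF cells the corresponding changes were -3.69 and 1.18, each with an SE of 0.07.

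Egr2 fell at both steps. Its sham arrays read 3.47, 3.52, 3.32 and 3.39 at 0 h, 0.20, 0.16, 0.11 and 0.22 at 4 h, then -0.92, -1.001, -0.88 and -1.22 at 24 h. The nsPEF arrays read 3.42, 3.54, 3.65 and 3.60, then 0.22, 0.39, 0.18 and 0.22, then -1.16, -1.43, -1.36 and -1.76. The times did not overlap with either treatment, and the nsPEF arrays at 24 h hold the lowest values. Egr2 decreased by 3.25 ± 0.10 to 4 h in sham cells (adjusted p = 2.5e-16) and by a further 1.18 ± 0.10 to 24 h (adjusted p = 2.1e-09). At 24 h 4.64% of the 0 h intensity was left in sham cells and 3.17% in nsPEF cells, and over 24 h Egr2 ranked 13 and 8 in size of change among all probes tested.

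By its brighter probes Egr3 was not lower at 4 h and fell afterwards. The brightest probe, A_55_P2787986, read 0.66, 0.75, 0.59 and 0.89 in sham cells at 0 h, 1.23, 1.21, 1.14 and 0.80 at 4 h, then -1.33, -1.37, -1.54 and -1.73 at 24 h. In nsPEF cells it read 0.81, 0.84, 1.06 and 1.22, then 1.44, 1.42, 1.23 and 0.92, then -1.49, -1.83, -2.02 and -2.06. The 0 h and 4 h arrays overlapped, and all 24 h arrays lay far below both. In sham cells this probe was called higher at 4 h, by 0.37 ± 0.14 (adjusted p = 0.032). The call ended without any of 5 arrays (S0 replicates 1 and 3 and S4 replicates 1, 2 and 3, adjusted p between 0.063 and 0.085). Over all 28 fits without an array or a replicate number it held in 20, with adjusted p up to 0.19. In nsPEF cells the difference was 0.27 ± 0.14 (adjusted p = 0.11). The probe A_52_P440836, on the same transcript, gave 0.30 ± 0.13 in sham cells (adjusted p = 0.058) and 0.17 ± 0.13 in nsPEF cells (adjusted p = 0.28). From 4 to 24 h both of these probes fell, with differences of -2.59 and -2.70 in sham cells and of -3.10 and -3.05 in nsPEF cells. The third probe, A_51_P437198, stands on another transcript and was dim, well above background on 7 of the 8 arrays at 0 h and on none at 4 or 24 h. It was tested through its 0 h arrays alone, so a fall from 0 h was favoured in advance. It was called lower at 4 h in sham cells (adjusted p = 0.0043), by at least 1.54-fold against the dimmest signal that counted as above background, so the Egr3 probes disagree on the 4 h step. Its sham call from 4 to 24 h compares arrays that were all not well above background, and carries no fold.

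Nr4a1 showed the tightest replicates and the largest 24 h fall of the members. Its sham arrays read 7.21, 7.28, 7.18 and 7.17 at 0 h, 3.66, 3.70, 3.66 and 3.68 at 4 h, then 2.17, 2.09, 2.09 and 2.04 at 24 h. The nsPEF arrays read 7.19, 7.29, 7.25 and 7.31, then 3.71, 3.74, 3.63 and 3.60, then 2.12, 2.09, 2.06 and 1.98. Sham and nsPEF arrays overlapped at every time, and no time overlapped another. In sham cells Nr4a1 decreased by 3.53 ± 0.04 to 4 h (adjusted p = 1.4e-21) and by 5.11 ± 0.04 over 24 h (adjusted p = 2.1e-24), which left 2.89% of the 0 h intensity. The 24 h change ranked 10 in size among all probes tested in sham cells and 6 in nsPEF cells.

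Nr4a2 fell mostly before 4 h. The probe A_66_P118213 read 2.97, 2.98, 2.78 and 3.14 in sham cells at 0 h, 1.03, 0.95, 0.79 and 0.82 at 4 h, then 0.52, 0.51, 0.47 and 0.43 at 24 h. In nsPEF cells it read 3.27, 3.20, 3.31 and 3.48, then 1.07, 1.08, 0.95 and 1.00, then 0.38, 0.42, 0.28 and 0.37. On this probe every nsPEF array lay above every sham array at 0 h, and below at 24 h. That 24 h difference was -0.12 (adjusted p = 0.34), and groups did not overlap for 14.3% of all probes at this time. On the second probe, A_52_P494622, sham and nsPEF arrays overlapped at 24 h (0.0076, adjusted p = 0.96). The fall to 4 h in sham cells was 2.07 ± 0.07 (adjusted p = 2.5e-15) for A_66_P118213, and A_52_P494622 gave -1.98 ± 0.06 (adjusted p = 4.8e-16). Of the log2 change over 24 h, 83.3% and 78.3% were present at 4 h for these probes, beside 80.4% for Ier2, 73.5% for Egr2 and 69.1% for Nr4a1.

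Nr4a3 did not pass the test at any step, except under a few of the alternatives. The tested probe, A_66_P103105, read -2.14, -2.25, -2.11 and -2.27 in sham cells at 0 h, -2.07, -2.12, -2.02 and -3.37 at 4 h, then -2.17, -2.23, -2.36 and -1.77 at 24 h. In nsPEF cells it read -2.02, -2.15, -2.22 and -2.34, then -2.09, -2.09, -1.93 and -1.76, then -1.90, -1.87, -1.74 and -1.73. One sham array at 4 h, replicate 4, lay apart from the other 23. Between 0 and 4 h the differences were -0.20 ± 0.21 in sham cells and 0.22 ± 0.21 in nsPEF cells, with 95% intervals of -0.63 to 0.23 and -0.22 to 0.65, which leave out falls of the size seen for Nr4a1 and Nr4a2. In nsPEF cells the 24 h arrays all lay above the 0 h arrays, a trait whose share of all probes was not counted between times. The difference was 0.37 ± 0.21 and was not called (adjusted p = 0.15), where 42.2% of all probes were. Without S4 replicate 4, whose value widens the probe's error in every comparison, that difference was called (0.37, adjusted p = 0.0068), as it was in the fit of the nsPEF arrays alone (adjusted p = 0.0098). With spike-in scaling the probe was called higher from 4 to 24 h in sham cells (0.91, adjusted p = 9.3e-04) and in nsPEF cells (0.56, adjusted p = 0.033), and over 24 h in both (0.76 and 0.85). This scaling put the median of all probes at 0.66 in sham and 0.37 in nsPEF cells from 4 to 24 h. Over 24 h it put that median at 0.70 and 0.54. The Nr4a3 window printed above held 4 cores, as did those of Nr4a1 and Nr4a2, which fell. Whether the cores have a part in these changes was not tested.

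Ier2 fell by 4 h and a little further by 24 h. Its sham arrays read 3.88, 3.88, 3.89 and 3.80 at 0 h, 1.72, 1.80, 1.89 and 1.68 at 4 h, then 1.26, 1.18, 1.32 and 1.31 at 24 h. The nsPEF arrays read 3.85, 4.00, 3.81 and 3.79, then 1.91, 1.80, 1.90 and 1.86, then 1.09, 1.27, 1.33 and 1.10. The treatments overlapped at each time and the times did not. The sham changes were -2.09 ± 0.06 to 4 h (adjusted p = 2.2e-16) and -0.51 ± 0.06 from 4 to 24 h (adjusted p = 5.5e-07), though with spike-in scaling, which put the median of all probes at 0.66 for this later step, the Ier2 difference was 0.14.

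Ier3 moved the least of the members that fell. It read 5.17, 5.25, 5.19 and 5.20 in sham cells at 0 h, 4.37, 4.43, 4.36 and 4.33 at 4 h, then 3.86, 4.02, 3.87 and 3.79 at 24 h. In nsPEF cells it read 5.11, 5.23, 5.22 and 5.29, then 4.67, 4.57, 4.54 and 4.52, then 3.83, 3.63, 3.69 and 3.66. The 4 h nsPEF arrays all lay above the 4 h sham arrays, and at 24 h the treatments overlapped with nsPEF lower. Ier3 fell by 0.83 ± 0.06 to 4 h in sham cells (adjusted p = 5.8e-11), which left 56.2%, and 40.1% was left at 24 h.

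Across the members, then, the change with time was large and mostly downward, with Egr1 rising again and Egr3 falling late. By the test over all 3 times, 10 of the 11 member probes were called, against 80.2% of all probes tested. Between 0 and 4 h in sham cells 9 member probes were called, 1 higher and 8 lower, where 59.1% of all probes were called, 29.4% higher and 29.7% lower. A fall of at least 4-fold was called for 5 of the 11, one probe each of Egr1, Egr2, Nr4a1, Nr4a2 and Ier2, against 1.6% of all probes, and for 3 with normexp correction (no share of all probes was counted with it). In nsPEF cells 8 were called over the same step, all lower (61.3% of all probes called, 33.5% higher and 27.8% lower), and 5 fell at least 4-fold, against 1.5% of all probes. Both counts of 8 lower include the dim Egr3 probe A_51_P437198, which was tested through its 0 h arrays alone.

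From 4 to 24 h, 10 member probes were called in sham cells, Egr1 higher and 9 lower, against 57.7% of all probes called, 27.8% higher and 29.9% lower. The 9 include the dim Egr3 probe A_51_P437198, which was not well above background on any sham array at 4 or 24 h. With spike-in scaling the Nr4a2 probe A_66_P118213 was called in the opposite direction (0.23, adjusted p = 0.041), and the calls of A_52_P494622, Ier2 and Ier3 were lost (0.10, 0.14 and 0.16, adjusted p = 0.29, 0.12 and 0.13), all below the median of all probes, which this scaling put at 0.66. In nsPEF cells 9 were called, Egr1 higher and 8 lower, against 56.6% of all probes, 27.5% higher and 29% lower. Over the whole 24 h, 10 of 11 were lower in sham cells (36.6% of all probes called, 16.9% higher and 19.7% lower) and 10 of 11 in nsPEF cells (42.2% called, 23.9% higher and 18.3% lower). The median difference of the member probes over 24 h was -2.49 in sham cells and -2.82 in nsPEF cells, beside -9.6e-04 and 0.06 for all probes tested. Falls of at least 4-fold in sham cells were called for 9 of the 11 member probes, the dim Egr3 probe by its fitted value included (its bound is 1.485-fold), and for 0.411% of all probes. The dim probe was tested through its 0 h arrays alone, so its fall was favoured in advance. It is also among the 10 lower over 24 h and in the medians. With spike-in scaling, which put the median of all probes over 24 h at 0.70, the count of 4-fold falls was 2, Egr2 and Nr4a1. With normexp correction it was 6. No share of all probes was counted with either.

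**Figure D2:**
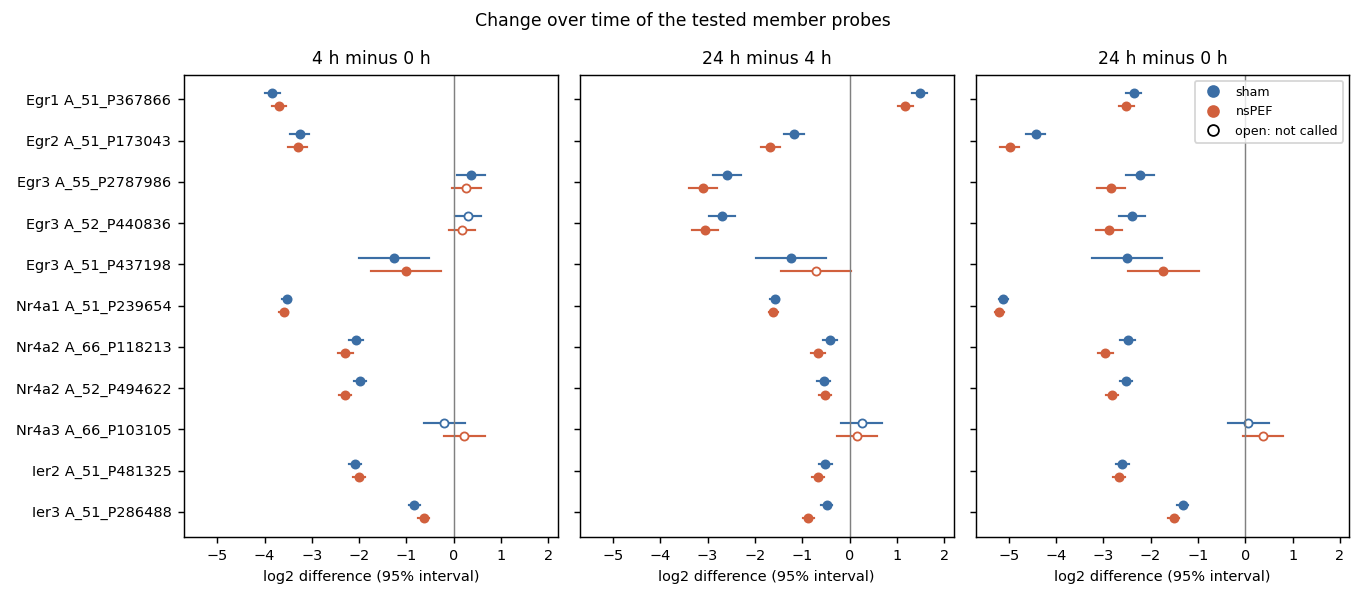
Log2 differences (horizontal axis) between times for the 11 tested member probes (vertical axis), in sham (blue) and nsPEF cells (orange). Points are limma estimates from groups of 4 arrays, lines are 95% intervals, and open points were not called; Egr1 lies right of 0 in the middle panel (1.48 and 1.18), and the brighter Egr3 probes move in the middle panel, not the left.

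nsPEF changed these genes little beside the change with time. At 0 h no member probe was called, at 4 h none, and at 24 h only Egr2, which was lower in nsPEF cells. Over all probes 0.127% were called at 0 h (0.0716% higher and 0.0557% lower), 3.31% at 4 h (1.71% and 1.6%) and 4.82% at 24 h (2.64% and 2.18%). By limma, 3, 2 and 4 of the 11 member probes had an unadjusted p under 0.05. No share of all probes was counted at the unadjusted threshold, here or below, so such counts have no baseline. A plain two-way analysis of variance called 0, 1 and 2 member probes at the 3 times, and no share of all probes was counted with it. With 4 arrays against 4, an exact permutation test of a single probe cannot give a p below 0.0286, two-sided.

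For Nr4a1 the differences between nsPEF and sham were 0.05 ± 0.04 at 0 h, -0.0030 ± 0.04 at 4 h and -0.03 ± 0.04 at 24 h. The 95% intervals, in that order, were -0.04 to 0.15, -0.10 to 0.09 and -0.13 to 0.06. Ier2 gave intervals of -0.13 to 0.13 at 0 h, -0.04 to 0.22 at 4 h and -0.20 to 0.06 at 24 h. Egr1 was higher at 4 h on average, by 0.20 ± 0.07, with overlapping arrays and an adjusted p of 0.15.

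Nr4a2 had the largest nsPEF difference at 0 h of the tested members. Both of its probes were higher, by 0.35 ± 0.07 (A_66_P118213) and 0.30 ± 0.06 (A_52_P494622), and on both every nsPEF array lay above every sham array (exact permutation p = 0.0286, the smallest 4 against 4 can give). Groups did not overlap for 8.7% of all probes at this time. The adjusted p was 0.063 for each, so neither was called, and with the replicate number as a block A_52_P494622 was (adjusted p = 0.027). Of 13 other ways of processing, 5 called each probe, and the adjusted p ranged from 0.017 to 0.25 for the first probe and from 0.012 to 0.23 for the second.

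Ier3 stood at the threshold at 4 h. It was 0.20 ± 0.06 higher in nsPEF cells, with groups that did not overlap (exact permutation p = 0.0286; 14% of all probes at 4 h), and its adjusted p was 0.0504. At 24 h it was 0.18 ± 0.06 lower (adjusted p = 0.062), with overlapping groups. In the test of the difference itself, the effect at 24 h was called different from that at 4 h, by -0.38 ± 0.08 (adjusted p = 0.038; 0.448% of all probes were called for this difference), though the call was lost without S0 replicate 1, any S4 array, E4 replicate 1, 2 or 3, S24 replicate 1, 2 or 3, or E24 replicate 2 or 4, with adjusted p from 0.052 to 0.084. It was also lost with normexp correction (adjusted p = 0.15), with no filter (0.089), with the replicate block (0.0502) and in each of the 4 fits without a replicate number (adjusted p from 0.11 to 0.28).

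Egr2 at 24 h was 0.42 ± 0.10 lower in nsPEF cells (95% interval -0.63 to -0.22, adjusted p = 0.019), and S24 replicate 4, at -1.22, lay below the highest nsPEF array, at -1.16 (exact permutation p = 0.057). The call ended without S24 replicate 1, 2 or 3 or without E24 replicate 4 (adjusted p 0.056, 0.051, 0.068 and 0.058), with normexp background correction (-0.21, adjusted p = 0.12) and in the fit of the 8 arrays of the 24 h slide alone (-0.42, adjusted p = 0.17). It also ended without replicate number 2 and without replicate number 3, and the highest adjusted p of the 28 fits was 0.18. The brightest Egr3 probe was also lower at 24 h, by 0.35 ± 0.14, without passing the test (adjusted p = 0.15). The dim Egr3 probe was higher by 1.01 ± 0.35 at 24 h (adjusted p = 0.10), on arrays that were all not well above background, so no fold is given.

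**Figure D3:**
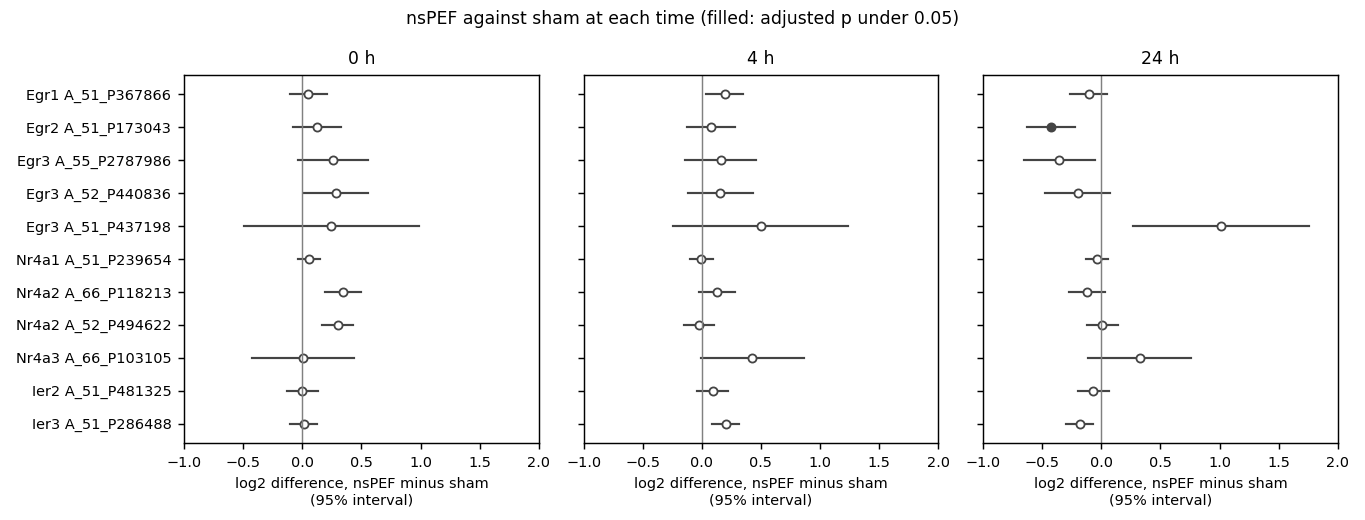
Log2 difference of nsPEF from sham (horizontal axis) for the 11 tested member probes (vertical axis) at 0, 4 and 24 h. Points are limma estimates, lines 95% intervals, and the filled point, Egr2 at 24 h (-0.42), is the only one called; A_51_P437198 was not well above background in either group at 4 or 24 h.

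**Figure D4:**
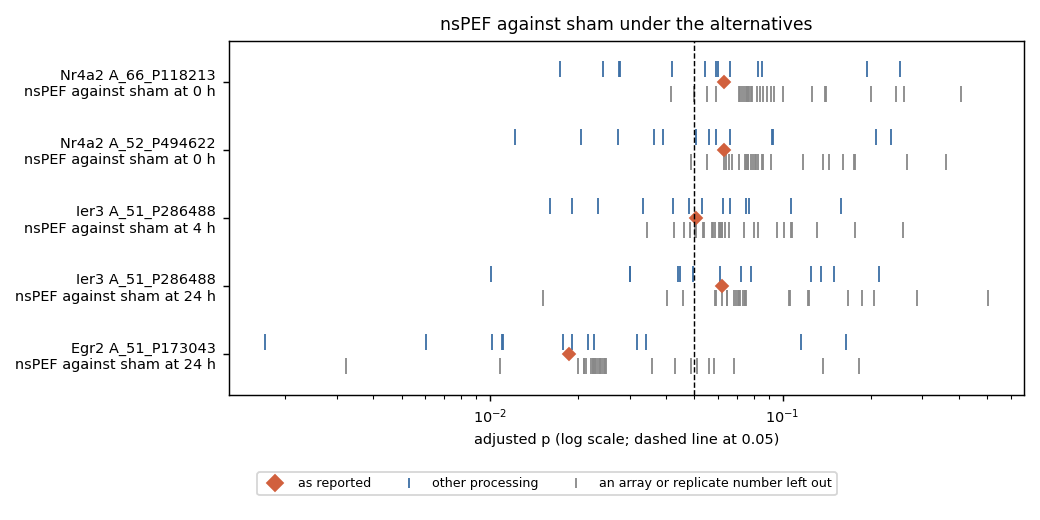
Adjusted p (horizontal axis, log scale) of the 5 nsPEF differences nearest the threshold of 0.05 (dashed line). Diamonds are the values reported, blue ticks the 13 other ways of processing, and grey ticks the 28 fits without an array or a replicate number; each of the 5 has ticks on both sides of the line, with Egr2 mostly left of it.

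The test of whether the nsPEF effect changed with time called 0 of the 11 member probes, against 0.377% of all probes. Of these, 7 had an unadjusted p under 0.05, and the plain analysis of variance called 1, both again without a share of all probes beside them. The lowest adjusted p values were 0.060 for Ier3, 0.079 and 0.11 for the 2 Nr4a2 probes and 0.087 for Egr2. For the Nr4a2 probe A_66_P118213 the effect fell from 0.35 at 0 h to -0.12 at 24 h, a difference of -0.47 ± 0.10 with an adjusted p of 0.054. For A_52_P494622 the effects were 0.30 at 0 h and 0.0076 at 24 h, a difference of -0.29 ± 0.09 (adjusted p = 0.12).

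Close relatives of the members did not all follow them. Egr4 was well above background on 0 of 24 arrays, and no probe for Nab1 was found. Ier5, an Ier2-related gene, read 4.80 on average in sham cells at 0 h and 4.81 at 4 h, and fell by 0.88 ± 0.06 from 4 to 24 h (adjusted p = 4.0e-11). Ier5l fell by 0.93 ± 0.06 to 4 h (adjusted p = 2.4e-11) and differed by 0.09 ± 0.06 from there to 24 h. Nab2, itself an Egr target and corepressor, was lower at 4 h by 0.49 ± 0.05 in sham cells and by 0.70 ± 0.05 in nsPEF cells. At 4 h its sham arrays read 4.23, 4.20, 4.13 and 4.14 and its nsPEF arrays 3.96, 3.88, 3.92 and 3.92. All nsPEF arrays lay lower, by 0.26 ± 0.05 (adjusted p = 0.010), and groups did not overlap for 14% of all probes at this time. The call was lost with spike-in scaling (-0.08, adjusted p = 0.48), in the fit of the 8 arrays of the 4 h slide alone (adjusted p = 0.075) and in each of the 4 fits without a replicate number (adjusted p from 0.057 to 0.076). A second, dimmer Nab2 probe gave -0.06 ± 0.15 (adjusted p = 0.84).

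Other immediate-early genes moved in both directions at 4 h. Of the 36 tested of a list of 38, which also holds Ier5 and Ier5l, 14 were higher and 21 lower at 4 h in sham cells, with a median difference of -0.30 (all probes -0.01). Of all probes 29.4% were called higher and 29.7% lower at this step. The largest changes were those of Fos (-7.28) and Fosb (-5.88), subunits of AP-1, of Zfp36 (-4.44), which speeds the decay of mRNAs, and of Btg2 (-4.25), an antiproliferative gene. From 4 to 24 h 5 were higher and 26 lower (27.8% and 29.9% of all probes), with a median of -0.94. The largest of these later falls were of Errfi1 (-2.75), a feedback inhibitor of the EGF receptor, the phosphatase Dusp5 (-2.71), the AP-1 subunit Fosl1 (-2.30) and the prostaglandin synthase Ptgs2 (-2.04). Over 24 h in sham cells 2 were higher and 27 lower (16.9% and 19.7% of all probes), with a median of -1.07.

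Between nsPEF and sham 0 of the 36 were called at 0 h by limma (5 with an unadjusted p under 0.05). At 4 h 5 were higher and 0 lower, where 1.71% and 1.6% of all probes were called higher and lower. At 24 h 0 were higher and 5 lower, where the shares were 2.64% and 2.18%. The alternatives were run for the members and Nab2, so how these calls depend on the processing was not tested. At 4 h the largest differences were of Fosb (0.38, adjusted p = 0.032), Myc (0.27, adjusted p = 0.017), Fosl2 (0.26, adjusted p = 0.011) and Plk2 (0.25, adjusted p = 0.16). At 24 h they were of Fos (-0.49, adjusted p = 0.021), Dusp1 (-0.44, adjusted p = 0.0031), Klf2 (0.42, adjusted p = 0.15) and Ccn1 (-0.30, adjusted p = 0.0012). The other called genes, named after their values were seen, were Klf4 and Ccn1 at 4 h and Ccn2 and Trib1 at 24 h.

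**Figure D5:**
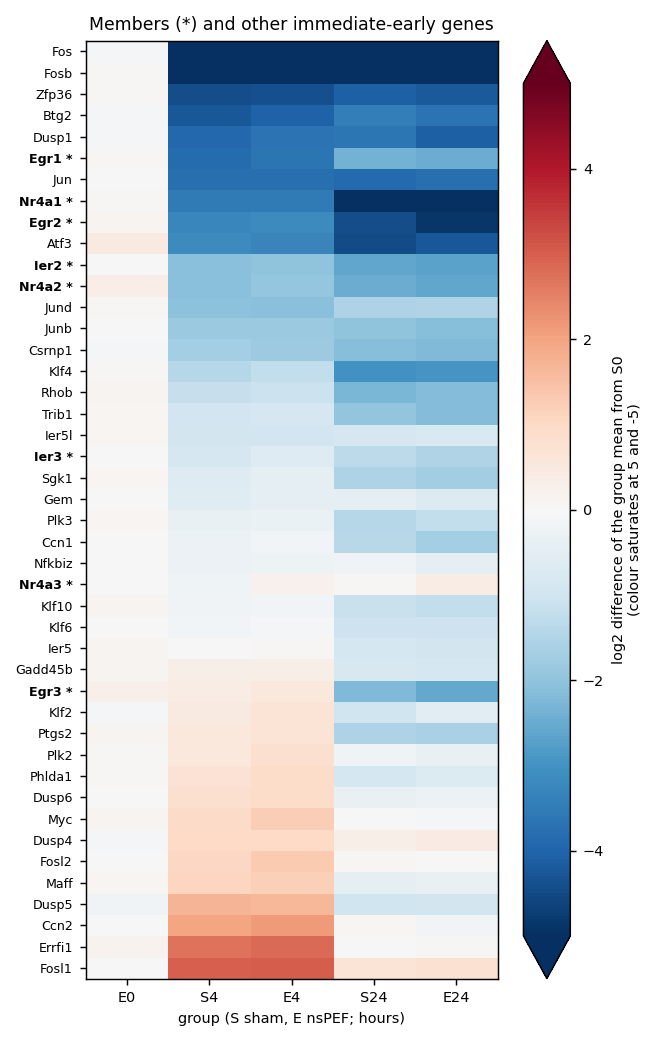
Group means relative to S0 (colour, log2 difference, saturating at 5 and -5) of the 8 members (starred, brightest tested probe) and 36 other immediate-early genes (rows, ordered by the sham 4 h value), in groups E0 to E24 (columns, means of 4 arrays). Fos and Fosb are the darkest rows at 4 h, Egr3 lies among genes that were not lower at 4 h, and sham and nsPEF columns of a time look alike.

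Regulators that act on immediate-early promoters were mostly higher at 4 h. Of 16 tested, 10 were higher and 3 lower in sham cells, with a median difference of 0.35, where 29.4% and 29.7% of all probes were called higher and lower. The largest changes were of the ERK kinase Map2k1 (1.43), of the ERK Mapk3 (-0.98), of the ternary complex factor Elk4 (0.89) and of Atf1 (0.84), a factor of the cyclic AMP response. From 4 to 24 h 2 were higher and 9 lower (27.8% and 29.9% of all probes), led by Srf, the factor that binds CArG boxes (-1.25). Between nsPEF and sham 0 were called by limma at 0 and 4 h (1 and 2 with an unadjusted p under 0.05) and 1 at 24 h, Map2k2 (0.22, adjusted p = 0.037), where 4.82% of all probes were called.

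Rxra (-1.14) and Rxrb (-0.77), dimer partners of Nr4a1 and Nr4a2, fell to 4 h in sham cells together with Nab2, 3 of 3 tested. All 3 rose by 24 h. Of all probes 29.7% were called lower by 4 h and 27.8% higher from 4 to 24 h. Rxrg was above background on 1 array. Of 7 tested genes known as Egr1 targets, Nab2 among them again, 3 were higher and 3 lower at 4 h in sham cells (29.4% and 29.7% of all probes). The growth factors Pdgfa (0.91), Pdgfb (0.90) and Tgfb1 (0.84) rose, and Gdf15, a stress-induced cytokine, fell at least 4.65-fold (adjusted p = 6.9e-05; above background on 0 of the 4 sham arrays at 4 h). Of the steroidogenic genes linked to Nr4a1, Star, which carries cholesterol into mitochondria, rose by 0.91 to 4 h and fell by 1.54 from 4 to 24 h in sham cells, while Cyp17a1 fell by 0.45 to 4 h (adjusted p = 0.020). In nsPEF cells Star rose by 0.44 to 4 h (adjusted p = 0.0076), and Cyp17a1 was not called over this step (-0.13, adjusted p = 0.50). Neither was called between nsPEF and sham at any time (adjusted p from 0.35 to 0.98).

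The genes whose 6 group means, centred on their own average, lay closest to each member were named by their root mean square difference in log2 units, among 16055 genes and with no test. For Egr1 these included A530013C23Rik (0.20) and Prr15l (0.37). For Egr2 they were Hes1 (0.32), Dusp1 (0.58) and Jun (0.59), and the same 3 genes, in another order, were closest to Nr4a1 (0.46 for Hes1, 0.68 for Jun, 0.70 for Dusp1). For Egr3 they were Gadd45g (0.21), Id4 (0.27) and Wfdc21 (0.31). Nr4a2 was closest to Artn (0.20), Ppp1r15a (0.24) and Cabyr (0.28), and Ier2 to Csrnp1 (0.21), Ppp1r15a (0.22) and Junb (0.23). Ier3 was closest to Nkain4 (0.07), Cbr2 (0.10) and Saa1 (0.10). The nearly flat Nr4a3 probe, whose group means span 0.59, was closest to Ptpn6, Gm35257 and Fv1, all at 0.05.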

How the data were processed

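Total RNA of 24 TM3 samples was hybridised by the authors to Agilent SurePrint arrays, 1 Cy3-labelled sample per array. The deposited scanner files, made with Agilent Feature Extraction 12.0, hold background-corrected intensity values (gProcessedSignal), and the authors' deposited series table holds log2 values shifted to the 75th percentile. Control and outlier-flagged spots were left out, and the intensities of the spots of a probe were averaged. Log2 values of these were then taken relative to each array's 75th percentile over probes. A probe was tested if it was well above background on at least 2 of 4 arrays of any group. Groups were compared with limma 3.58.1 (R 4.3.3) on 6 group means, with Benjamini-Hochberg adjustment over all tested probes, after checks on simulated data. Precision is limited by how far a probe stood above background and by the 4 arrays per group. Nothing in the labels says that replicates came from separate cultures beyond the word biological, so p-values measure the spread between these samples.

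The members and gene lists were chosen with earlier results of these data known. Named genes were all member probes, their named relatives, at most 4 members of a list with the largest change, and the 3 genes closest to each member in group means, of which 1 is not reported here. Alternatives were other normalizations, filters and models and the omission of arrays. The files held no mean spot signal, so normexp correction used median signals.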

Additional observations from a re-analysis of the deposited data

Results flagged for a closer look

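Of 72 sets of 4 arrays (12 member probes in 6 groups), 3 held an array far from the rest of its group, where chance gives about 1 such set in 20. S4 replicate 4 read -3.37 for the Nr4a3 probe A_66_P103105, where the nearest sham array at 4 h read -2.12. The 75th percentile subtracted on S4 replicate 4 was 533, against 299 to 311 on the other sham arrays at 4 h. The probe's intensity there was 51.6, against 71.5 to 74.6. S4 replicate 3 read -0.22 for the Egr3 probe A_52_P440836, above the other 3, at -0.47 to -0.52. S0 replicate 4 read 3.80 for Ier2, below the other 3, at 3.88 to 3.89.

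A difference between times in the nsPEF effect was called for Ier3, whose effect at 24 h was -0.38 ± 0.08 on the log2 scale against that at 4 h (adjusted p = 0.038). The call was lost with normexp correction, no filter and the replicate block, without any of 13 single arrays and without each replicate number.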

How the results depend on the processing

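The called changes with time kept their direction under the processing alternatives and the fits without an array, apart from 4 sham differences from 4 to 24 h under spike-in scaling. There Nr4a2 gave 0.10 (A_52_P494622) and 0.23 (A_66_P118213, a call in the opposite direction), Ier2 0.14 and Ier3 0.16, where the median of all probes had itself moved to 0.66, so all 4 stayed below it; this scaling also moved that median to 0.70 for sham and 0.54 for nsPEF cells over 24 h. At the 4 h step Egr3 was the gene whose calls moved: for A_55_P2787986 the sham difference was 0.25 (adjusted p = 0.12) with the 75th percentile over probes detected on all arrays, while A_52_P440836 was called with normexp, spike-in scaling and array weights. Spike-in scaling ended the Nr4a2 call from 4 to 24 h in nsPEF cells for A_52_P494622 (-0.12, adjusted p = 0.22) and called Nr4a3 higher over 24 h (0.76 in sham and 0.85 in nsPEF cells) and from 4 to 24 h (0.91 and 0.56). In nsPEF cells from 4 to 24 h it put the median of all probes at 0.37.

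Counts of member probes called between nsPEF and sham moved with the processing. No share of all probes called was counted under the alternatives, so these counts have no baseline. At 0 h they were 1 with quantile normalization and with the replicate block, and 2 with the percentile of detected probes, spike-in scaling, array weights and values centred by row of spots, the last chosen after seeing the data. At 4 h they were 1 with quantile normalization, the percentile of detected probes, no filter, the two-way analysis of variance and row centring, and 4 with spike-in scaling, which moved the median of all probes by 0.18. At 24 h they were 2 with quantile normalization, no filter, flagged spots kept, the authors' log2 values and the analysis of variance, 4 with array weights, and 0 with normexp and with the 8 arrays of the slide alone. For treatment by time they were 1 with quantile normalization and the analysis of variance, 2 with the percentile of detected probes, and 5 with spike-in scaling and array weights. Without an array or a replicate number the counts ranged from 0 to 1 at 0 h, from 0 to 1 at 4 h, from 0 to 4 at 24 h and from 0 to 3 for treatment by time. For sham they ranged from 7 to 10 (4 h against 0 h), 9 to 10 (24 h against 4 h) and 10 to 10 (24 h against 0 h), for nsPEF from 7 to 9, 9 to 11 and 10 to 11, and for time from 10 to 11.

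By the study's account the tests of a biological replicate shared a cell suspension, but the labels do not say that replicate numbers mark one, so whether they pair the samples is not settled. Same-numbered sham and nsPEF arrays deviated with correlations of -0.05 to 0.10, and 7 of 12 sham arrays correlated best with their own number, a hint from the data and not from the design. The Nr4a2 probe A_52_P494622 had an adjusted p of 0.027 at 0 h under the block, and the Ier3 difference between 24 h and 4 h effects one of 0.0502. Signal over background limits the Egr3 probe A_51_P437198 and the Nr4a3 probes.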
